A study of Homo sapiens with 54 samples.

Results

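The 6 peak lists described here map H3K4me3, histone H3 trimethylated at lysine 4, in RH4 cells after 24 h with the compound P3FI-90 or with DMSO. They are 6 of the 54 samples of the series and were chosen by assay, time and treatment: 3 P3FI-90 lists and 3 DMSO lists, numbered 1, 3 and 4 in both groups and compared within a number. RH4 is an established cell line from fusion-positive rhabdomyosarcoma (FP-RMS), a tumor of the muscle lineage driven by the PAX3-FOXO1 fusion transcription factor. The study developed P3FI-90 as an inhibitor of histone lysine demethylases, chiefly KDM3B, and asked how blocking these enzymes affects genes that the fusion regulates. The sample titles give a dose of 1 µM for replicates 3 and 4 and the number 1 with no unit for replicate 1, the cells were unmodified in both groups, and DMSO was the vehicle. All libraries come from 1 cell line, and the labels do not say whether replicates were separate cultures, so every p measures the spread between these libraries only.

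H3K4me3 marks the promoters of active genes. It is written by SETD1 and KMT2 (MLL) complexes, erased by the KDM5 enzymes (KDM1A removes the lower methyl states of the same lysine) and read by proteins with PHD, Tudor or chromo domains, such as subunits of TFIID and the ING family. In muscle-lineage cells, wide H3K4me3 domains lie over the genes of cell identity, such as those of the myogenic transcription factors. The comparison of P3FI-90 with DMSO addresses whether inhibition of H3K4 demethylases shows at promoters, and at which ones.

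All 6 lists were merged into 31579 regions, joining peaks that overlap by at least 1 bp. Of these, 11162 regions (35.3%) had a peak in every list, and the fits below use them. A peak's fold enrichment is its height over the local background in the same library, and it was turned into a percentile rank within its list from 0 to 100, because heights are not on 1 scale between lists. Width is the number of bases that peaks cover within a region. The study added Drosophila chromatin to each precipitation as a spike-in, but the peak lists carry no such scaling, so a rise or fall of the whole mark cannot be seen in ranks, and depth is not recorded in them.

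Some of the regions described below lie at genes of the integrated stress response. In this program ATF4 and its partners of the C/EBP family induce amino acid transport, synthesis and tRNA charging genes. ATF4 dimers bind a C/EBP-ATF element, searched here as TGATGNAA on both strands in the 300 bases before each of 20090 protein-coding start sites. It occurred before 2.65% of all starts, before 1.41% of starts with a region in all 6 lists, before 11 of 34 stress response genes (32.4%) and before 0 of 28 PAX3-FOXO1 target genes. Stretches around it are printed from the GRCh37 genome, 5′ to 3′ on the gene's strand and with the element in capitals, for 7 stress response genes with the H3K4me3 values given further on. Stretches that overlap an exon of any transcript are cut to 30 bases. They are chr4:139163526-139163625 (minus strand, 2 copies), chr12:57848814-57848913 (plus), chr16:56965832-56965931 (plus), chr15:41245449-41245478 (plus), chr7:97501770-97501799 (minus), chr14:100841932-100841961 (minus) and chr1:212782071-212782100 (plus, 1 of 2 copies shown).
SLC7A11: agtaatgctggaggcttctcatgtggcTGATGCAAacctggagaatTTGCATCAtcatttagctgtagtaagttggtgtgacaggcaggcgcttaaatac
INHBE: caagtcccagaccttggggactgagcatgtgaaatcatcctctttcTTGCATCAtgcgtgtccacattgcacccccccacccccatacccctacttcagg
HERPUD1: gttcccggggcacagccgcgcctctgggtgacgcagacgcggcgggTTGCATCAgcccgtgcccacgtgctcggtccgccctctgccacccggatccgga
CHAC1: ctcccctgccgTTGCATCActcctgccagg
ASNS: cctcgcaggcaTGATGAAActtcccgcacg
WARS1: tgaggggtggcTGATGCAAtgaccagctaa
ATF3: tataaaaggggTGATGCAAcgctctccaag
In SLC7A11, INHBE, HERPUD1 and CHAC1 the element next to the start lies in the reverse orientation and reads TTGCATCA on the gene's strand, and in ASNS, WARS1 and ATF3 it reads forward. SLC7A11 holds both orientations in 1 stretch. The E-box CAGCTG, a palindrome that myogenic factors bind, occurred before 15.4% of all starts, 5 of 28 PAX3-FOXO1 targets (17.9%) and 5 of 34 stress response genes (14.7%), shares close to that of all starts. The GC box GGGCGG was at 60.4% of all starts and the CCAAT box CCAAT at 37.8%. CCAAT was before 22 of 34 stress response genes (64.7%), but also before 12 of 19 myogenic regulators (63.2%). It was before 11 of 28 PAX3-FOXO1 targets (39.3%). These matches describe the sequence and are not evidence of binding.

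The lists matched the label of a muscle-lineage tumor. All 10 rhabdomyosarcoma and muscle markers on a fixed list, among them MYOD1, MYOG, DES and CHRNA1, had a region in at least 1 list, 7 had one in every list, and 1 of 19 markers of blood, liver, epithelium, neurons and other lineages had any (APOA1, in 1 P3FI-90 list). All 22 housekeeping promoters were marked in all 6 lists. Of genes with RNA values from the same treatment, the 9236 with a region in every list had a median of 24.8 TPM in P3FI-90 and 25.9 TPM in DMSO, the 2719 with a region in 1 to 5 lists had 1.39 TPM in P3FI-90 and 1.55 TPM in DMSO, and the 6267 with none had 0 TPM in both.

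Lists with the same number resembled each other more than lists of the same treatment. Over the common regions, Spearman's correlation of ranks was 0.829 to 0.867 between the P3FI-90 and the DMSO list of 1 number, 0.634 to 0.765 between lists of 1 treatment and 0.613 to 0.770 between the other pairs of lists. For widths it was 0.938 to 0.971 within a number and 0.656 to 0.949 within a treatment. These correlations are over regions, which are not independent replicates. Replicate 3 stood apart: its lists had fewer peaks, a larger share of them at start sites and lower enrichment, in P3FI-90 and DMSO alike. The median fold enrichment was 24.2, 8.47 and 15.0 in the P3FI-90 lists, against 21.5, 8.59 and 12.0 in the DMSO lists. In pair 4 the enrichment was higher in P3FI-90 at 86.8% of common regions (median log2 ratio 0.51), while in pairs 1 and 3 the medians were 0.00696 and -0.00477, so heights could not be set side by side as they stand.

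The number of H3K4me3 peaks differed between treatments by less than the spread of the pairs. The lists held 29474, 16662 and 24160 peaks after P3FI-90, against 29812, 16410 and 25349 after DMSO. The P3FI-90 list was the longer one in pair 3 only, and the mean difference was -425 ± 724 peaks (SD of 3 pairs, exact paired permutation test, two-sided p = 0.5). Median peak width was 740, 699 and 899 bp after P3FI-90, against 727, 719 and 856 bp after DMSO, and the sign of its difference also varied between pairs (mean 12.0 bp, exact p = 0.75). The share of peaks within 2 kb of a protein-coding start site was 53.4, 84.0 and 56.5% after P3FI-90, against 52.8, 83.6 and 57.0% after DMSO (exact p = 0.75).

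In 2 measures of the full lists all 3 pairs moved one way. Peaks covered 28849175, 14109304 and 26430046 bp after P3FI-90, against 29811734, 14143199 and 27049200 bp after DMSO, a difference of -3.23, -0.24 and -2.29% in pairs 1, 3 and 4. At the same time more start sites carried a peak, 12745, 10765 and 12340 after P3FI-90, against 12685, 10621 and 12221 after DMSO, a mean gain of 108 ± 43.1 start sites (SD of 3 pairs). For both measures the exact paired permutation p was 0.25, the smallest that 3 pairs allow, and the unpaired exact p was 0.7. Within a pair the differences were small beside those between replicate numbers, as the plot of list values shows.

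**Figure D1:**
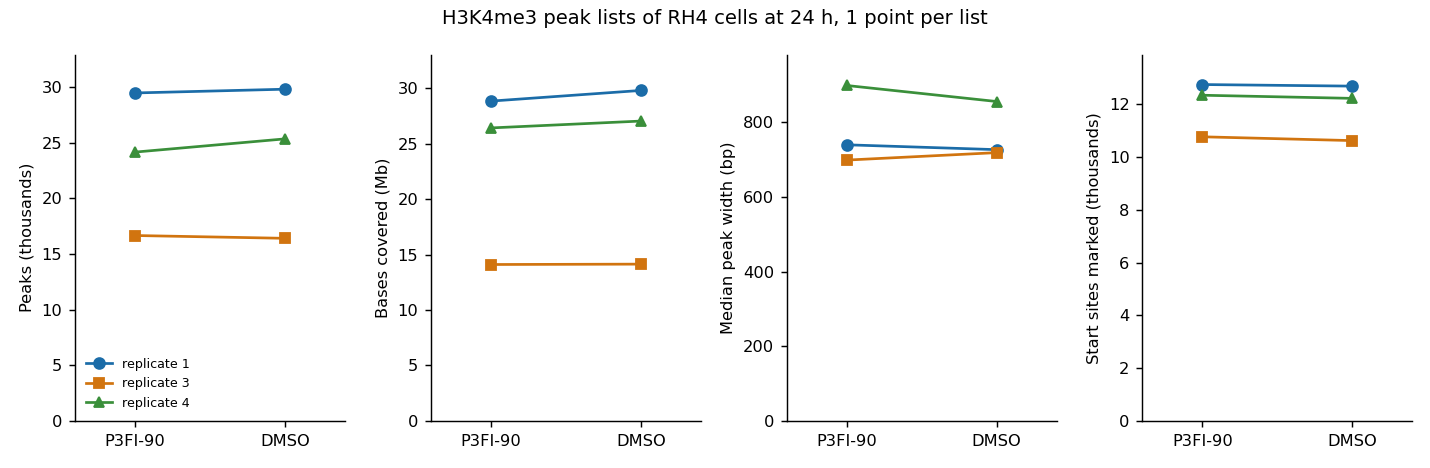
Peaks, bases covered, median peak width and start sites with a peak within 2 kb, each on a linear axis from 0, with 1 point per list, P3FI-90 on the left, DMSO on the right and a line joining each pair. The lines are nearly flat: covered bases were lower after P3FI-90 in 3 of 3 pairs (-0.24 to -3.23%), and marked start sites were higher in 3 of 3.

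Few regions were called in every list of 1 treatment and in no list of the other. In all 3 P3FI-90 lists and no DMSO list there were 2 regions (0.00633% of 31579), and in all 3 DMSO lists and no P3FI-90 list there were 7 (0.0222%). The first of the 2 covers the start of FMO4 (chr1:171283113-171283613), a flavin-containing monooxygenase, at a fold enrichment of 8.42, 7.70 and 10.47 in the P3FI-90 lists. FMO4 RNA was at 3.16, 2.52 and 1.18 TPM in P3FI-90, against 2.67, 3.24 and 2.19 TPM in DMSO, and these values overlap. The other P3FI-90 region, at chr2:184868909-184869452, lies between genes, and of the 7 DMSO regions 3 lie in gene bodies and 4 between genes. All 9 are weak, with a median -log10 p of 13.4 to 22.6 where the median of all peaks in a list was 41.2 to 112. The short lists of replicate 3, with 12260 (P3FI-90) and 12016 (DMSO) regions, limit how many regions could meet this rule. Without replicate 3, which asks for fewer lists, 337 regions were in P3FI-90 alone and 448 in DMSO alone, of 31869.

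Presence followed the replicate number instead. Regions in the 4 lists of replicates 1 and 4 and in neither list of replicate 3 numbered 7045 (22.3%), and 2339 were in both lists of replicate 1 only. The regions in all 6 lists were at start sites in 86.3% of cases. Their median width was 1603.5 bp, taking for each region the median bases covered over the lists that hold it. Their ratio of observed to expected CpG was 0.691, as CpG island promoters have. The 7045 were at start sites in 27.1% of cases, had a median width of 614 bp by the same measure and a CpG ratio of 0.369. Of the regions of each P3FI-90 list, 42.7, 91.0 and 49.8% were in all 6 lists, against 42.0, 92.9 and 49.7% of those of each DMSO list.

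**Figure D2:**
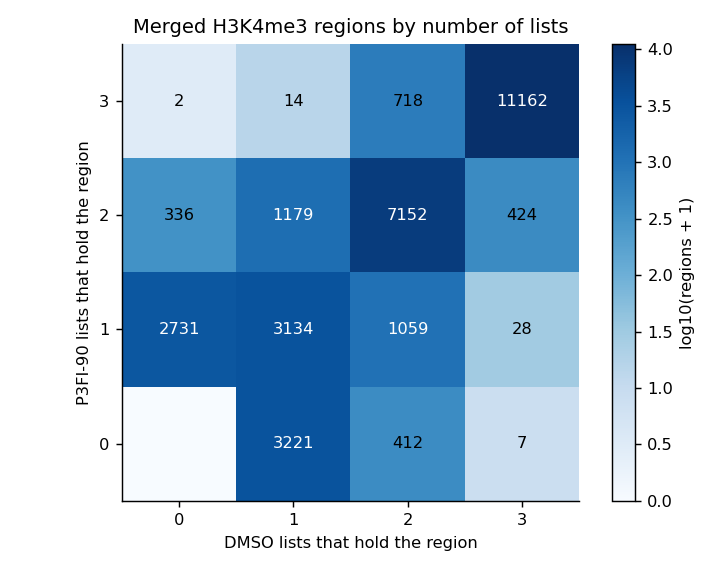
Number of merged regions by how many P3FI-90 lists (vertical axis, 3 at the top) and how many DMSO lists (horizontal axis) hold them; the shade is log10 of the count plus 1. Counts are largest on the diagonal, 11162 at 3 and 3, and the corners of regions held by 1 treatment alone have 2 (P3FI-90) and 7 (DMSO).

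No common region passed a test of the treatment on rank or width. The paper compared read counts scaled by the spike-in and reports upregulated but no downregulated H3K4me3 peaks after P3FI-90. Ranks within a list cannot show a rise of the whole mark, though a rise at only some peaks could shift them. Measure, scaling and threshold differ from the paper's, so its result was not tested here. In limma with the pair as a block, 0 of 11162 regions (0.0%) passed a Benjamini-Hochberg adjusted p of 0.05 for rank, where the lowest adjusted p was 0.774. At an unadjusted p under 0.05 there were 586 (5.25%), of which 250 were higher (2.24%) and 336 lower (3.01%) after P3FI-90. For width 0 of 11162 (0.0%) passed (lowest adjusted p 0.661), and 732 (6.56%) had an unadjusted p under 0.05, of which 105 (0.941%) were wider and 627 (5.62%) narrower. A fit without the block had 158 regions under 0.05 for rank and 12 for width. The regions named from here on are therefore described by their values in each list, and none of them changed by the adjusted test.

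The widths leaned to one side. Narrower after P3FI-90 in all 3 pairs were 3040 common regions (27.2%) and wider in all 3 were 913 (8.18%), whereas rank was higher in all 3 pairs at 1701 regions (15.2%) and lower in all 3 at 1551 (13.9%). The median log2 width difference was -0.04, -0.02 and -0.02 in pairs 1, 3 and 4. The lean grew with the width of the region: 3.37, 2.72, 5.41 and 10.96% of regions were narrower at an unadjusted p under 0.05 over 4 classes of equal size from the narrowest to the widest, and the median log2 difference was -0.003, -0.02, -0.04 and -0.05. The width difference also went with base composition, with a Spearman correlation to GC content of 0.340, 0.064 and 0.133 in pairs 1, 3 and 4 over 11162 regions that share libraries, and the part of either in the result was not tested.

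Rank differences at genes of the integrated stress response lay mostly above 0, while the ranks themselves were near the middle (list median 55.5 in P3FI-90 and 47.02 in DMSO). This gene list, like the others, was chosen with earlier results of these data known, so its counts are a description and not independent support. Of 34 on the list, 29 had a region in all 6 lists. The median rank difference of these 29 was 6.41 points, where it was 0.40 over all common regions, and it was 0.05, 12.0 and 7.80 in pairs 1, 3 and 4, so that pair 1 showed hardly any shift. With 1 pair left out it ran from 4.45 (without pair 3) to 10.02 points (without pair 1). Positive differences were seen at 24 of 29, where 5876 of all 11162 regions had one, and 13 were higher in all 3 pairs (1 was lower, PHGDH), where 15.2% of all regions were higher and 13.9% lower. At an unadjusted p under 0.05 there were 4 higher (CEBPG, DDIT3, CHAC1 and TRIB3) and 0 lower, where 2.24% of all regions were higher and 3.01% lower.

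CEBPG encodes a C/EBP factor that pairs with ATF4. Its rank was 82.6, 98.04 and 90.1 in the P3FI-90 lists, against 68.8, 83.1 and 69.6 in the DMSO lists, higher in every pair, although DMSO list 3 lay just above P3FI-90 list 1. The fitted difference was 16.4 ± 3.38 points (SE, limma, adjusted p = 0.774). DDIT3 encodes CHOP, the transcription factor of prolonged stress. Its rank was 97.8, 98.1 and 95.4 in the P3FI-90 lists, against 93.3, 90.8 and 73.5 in the DMSO lists, with every P3FI-90 list above every DMSO list. The fitted difference of DDIT3 was 11.3 ± 3.66 points (adjusted p = 0.774 in limma), and its width hardly differed (0.04 ± 0.052 on the log2 scale). Its rank difference was 4.53 points on ranks of -log10 p and 5.95 without pair 4, and that of CEBPG was 32.9 on ranks of -log10 p.

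CHAC1 encodes an enzyme that degrades glutathione. It ranked 43.6, 74.2 and 14.8 in the P3FI-90 lists, against 1.21, 40.1 and 12.9 in the DMSO lists, a difference that was large in pairs 1 and 3 and small in pair 4. Its peaks covered 1569, 624 and 1846 bp in the P3FI-90 lists, against 1495, 422 and 1346 bp in the DMSO lists, with a fitted log2 difference of 0.36 ± 0.12. TRIB3 encodes a pseudokinase that restrains ATF4 and AKT signaling. It ranked 28.4, 54.9 and 2.63 in the P3FI-90 lists, against 5.99, 28.3 and 1.41 in the DMSO lists, again with a small difference in pair 4. ASNS, asparagine synthetase, ranked 30.7, 19.1 and 18.7 in the P3FI-90 lists, against 18.3, 4.78 and 16.5 in the DMSO lists, and all P3FI-90 values of ASNS lay above all DMSO values though those of pair 4 are close.

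SLC3A2 encodes the heavy chain of amino acid exchangers. Its rank was 62.7, 99.4 and 95.9 in the P3FI-90 lists, against 61.5, 87.4 and 54.4 in the DMSO lists, nearly equal in pair 1 and higher in pairs 3 and 4. WARS1, tryptophanyl-tRNA synthetase, ranked 76.2, 64.7 and 73.2 in the P3FI-90 lists, against 60.8, 59.2 and 57.9 in the DMSO lists, with no overlap between groups. HERPUD1, a protein of the endoplasmic reticulum stress response, ranked 34.7, 56.8 and 12.6 in the P3FI-90 lists, against 30.3, 37.7 and 9.17 in the DMSO lists. ATF3, a stress-induced transcription factor with 2 elements before its start, did not follow: it ranked 10.2, 41.6 and 18.8 in the P3FI-90 lists, against 15.9, 42.2 and 16.1 in the DMSO lists. ATF4, the regulator itself, which is controlled mainly by translation, ranked 32.1, 94.5 and 66.6 in the P3FI-90 lists, against 46.9, 91.6 and 49.5 in the DMSO lists, with the sign differing between pairs.

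The stress response regions were also wider rather than narrower. Their median log2 width difference was 0.08 (0.14 without pair 1), against -0.03 over all common regions, and 13 of 29 were wider in all 3 pairs (2 were narrower), where 8.18% of all regions were wider. At an unadjusted p under 0.05 there were 5 wider (CEBPB, CHAC1, PPP1R15A, SLC3A2 and WARS1) and 0 narrower, where 0.941% of all regions were wider. The 5 became 0 without pair 4, 2 without pair 3, 1 with the widest peak of each region and 0 without the replicate block. CEBPB, another C/EBP partner, covered 3291, 2166 and 2922 bp in the P3FI-90 lists, against 3114, 1493 and 1985 bp in the DMSO lists, a fitted log2 difference of 0.39 ± 0.11, while its rank was lower in pair 1 and higher in pairs 3 and 4. PPP1R15A encodes GADD34, which ends the block of translation. It covered 4487, 3463 and 4431 bp in the P3FI-90 lists, against 4178, 2624 and 4105 bp in the DMSO lists, wider in every pair.

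Genes without a peak in every list are outside the fits. SLC7A11 encodes the cystine transporter subunit xCT. Its region had a fold enrichment of 50.1, 15.0 and 48.5 in the P3FI-90 lists, against 24.9 and 22.8 in DMSO lists 1 and 4, and no peak was called in DMSO list 3. INHBE, a subunit of the hormone activin E, had peaks in P3FI-90 lists 1 and 4 (fold 8.50 and 6.49) and in DMSO list 1 only (4.69). NUPR1, a small stress-induced chromatin protein, had 1 peak, in P3FI-90 list 4 (4.65). SLC7A5, the light chain of an amino acid exchanger, had no peak in either list of replicate 3 and a fold of 14.9 and 14.2 in P3FI-90 lists 1 and 4, against 10.5 and 14.6 in DMSO lists 1 and 4. In a fit over the 4 lists of replicates 1 and 4, chosen after seeing the data, its rank differed by -3.27 ± 7.04 points and that of SLC7A11 by 20.8 ± 9.08 (limma adjusted p = 0.954 and 0.623). A peak that is not called may lie just under the caller's threshold, so these are not shown to be absent.

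**Figure D3:**
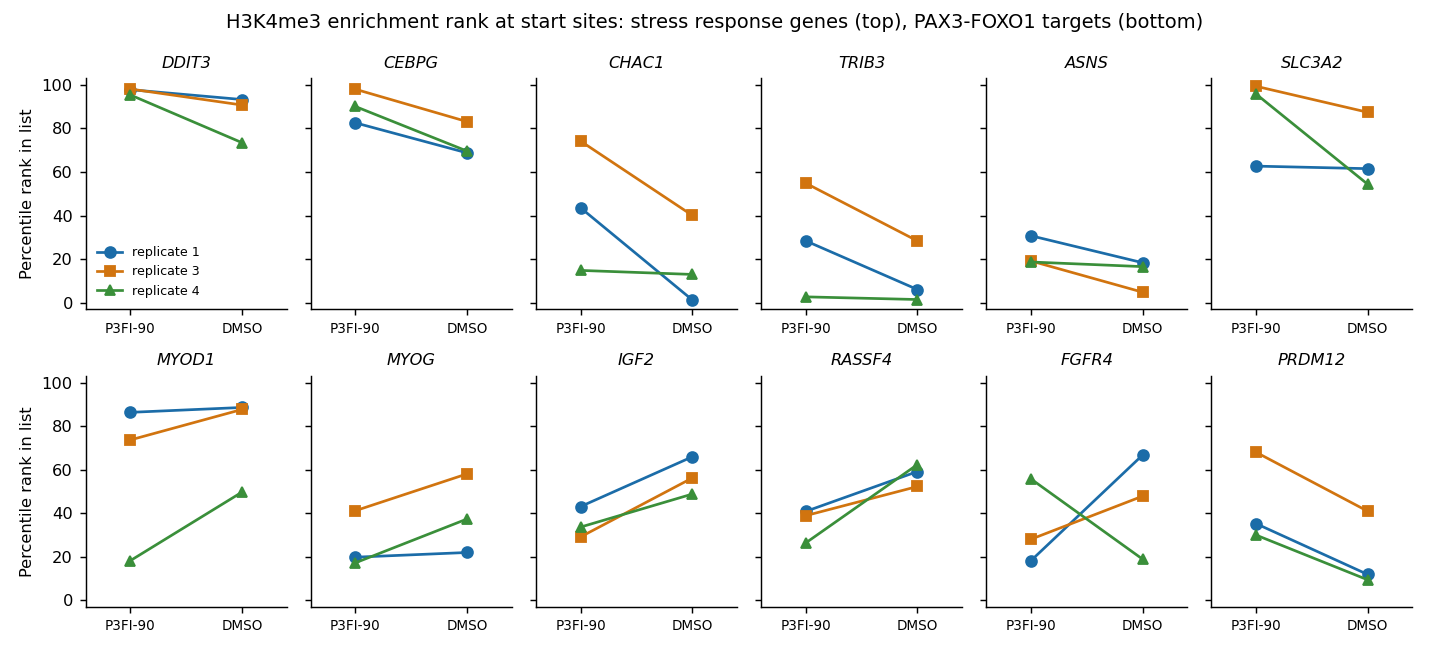
Percentile rank of H3K4me3 fold enrichment within the common regions of each list (0 to 100), P3FI-90 on the left and DMSO on the right of each panel, with a line per pair; 6 stress response genes in the upper row and 6 PAX3-FOXO1 targets in the lower. In the upper row all 18 lines slope down from P3FI-90 to DMSO. Its 6 genes are among the 13 of 29 stress response regions higher in all 3 pairs, so this count follows from their choice. Of the lower panels, PRDM12 slopes the same way and FGFR4 has pairs in both directions.

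PAX3-FOXO1 target genes leaned the other way. Of 28 targets, 23 had a common region, with a median rank difference of -5.51 points overall and of -1.68, -6.24 and -7.28 in pairs 1, 3 and 4. Rank was lower in all 3 pairs at 7 of 23, where 13.9% of all common regions were, and higher in all 3 at 3, where 15.2% were. At an unadjusted p under 0.05, IGF2 and RASSF4 were lower and PRDM12 was higher.

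IGF2 is the growth factor that RMS cells secrete. Its promoter region at chr11:2156421-2160559 ranked 43.1, 29.1 and 33.6 in the P3FI-90 lists, against 65.9, 56.2 and 48.8 in the DMSO lists, with no overlap between groups and a fitted difference of -21.7 ± 7.70 points (limma adjusted p = 0.774). The wider IGF2 region beside it (chr11:2160855-2170988) did overlap. It ranked 20.2, 18.1 and 16.1 in the P3FI-90 lists, against 60.3, 38.2 and 8.60 in the DMSO lists, higher in pair 4. Its peaks covered 10131, 4633 and 8835 bp in the P3FI-90 lists, against 10066, 7379 and 9896 bp in the DMSO lists, wider in pair 1. RASSF4 encodes a Ras-association protein of the Hippo pathway. It ranked 40.8, 38.9 and 26.3 in the P3FI-90 lists, against 59.2, 52.3 and 62.4 in the DMSO lists, again with no overlap, and its peaks covered 4464, 1044 and 2900 bp in the P3FI-90 lists, against 4468, 2144 and 4431 bp in the DMSO lists. PRDM12, a developmental transcription factor, went against the list with 35.3, 68.1 and 29.997 in the P3FI-90 lists, against 11.9, 40.9 and 9.40 in the DMSO lists, higher in every pair (23.7 ± 6.09 points), while its region was narrower in every pair. FGFR4, a receptor tyrosine kinase, ranked 18.1, 28.02 and 55.8 in the P3FI-90 lists, against 66.7, 47.8 and 18.9 in the DMSO lists, a change of sign between pair 4 and the others.

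MYOD1 commits cells to the muscle lineage. It ranked 86.4, 73.7 and 18.2 in the P3FI-90 lists, against 88.6, 87.7 and 49.7 in the DMSO lists. The difference was small in pair 1 and large in pair 4. Its domain covered 4562, 3279 and 4285 bp in the P3FI-90 lists, against 5204, 3657 and 5026 bp in the DMSO lists (chr11:17739672-17745167), narrower in every pair by a fitted log2 difference of -0.19 ± 0.038. MYOG, which drives terminal differentiation, ranked 19.8, 41.2 and 17.2 in the P3FI-90 lists, against 21.96, 58.1 and 37.4 in the DMSO lists. MYOG peaks covered 4475, 2539 and 3934 bp in the P3FI-90 lists, against 4652, 2746 and 4486 bp in the DMSO lists, also narrower in every pair. MYCN, the oncogenic MYC family member, ranked 52.2, 34.5 and 49.5 in the P3FI-90 lists, against 62.5, 61.9 and 39.8 in the DMSO lists, lower in pairs 1 and 3 and higher in pair 4, and its peaks covered 3091, 1976 and 3051 bp in the P3FI-90 lists, against 3035, 2019 and 3049 bp in the DMSO lists, with no common direction.

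Domains of the muscle lineage leaned to lower widths. At an unadjusted p under 0.05, 10 of the 23 target regions were narrower (IGF2, RASSF4, MYOD1, MYOG, PIPOX, FGFR4, TFAP2B, SOX8, SKP2 and PRDM12) and 0 wider, and 12 of 23 were narrower in all 3 pairs, where 5.62% and 27.2% of all regions were. The 10 became 1 without pair 4, 5 without pair 3, 2 with the widest peak of each region, 5 with widths centred on the list median and 0 without the replicate block. Of the 7 rhabdomyosarcoma lineage markers with a common region, all 7 were narrower in all 3 pairs, and 6 (CDH15, CHRNA1, FGFR4, MYOD1, MYOG and TFAP2B) at an unadjusted p under 0.05. The 6 became 1 without pair 4, 3 without pair 1, 1 with the widest peak, 3 when centred and 0 without the replicate block. CHRNA1, the muscle acetylcholine receptor subunit, had near the highest rank of every list and covered 3690, 2710 and 3932 bp in the P3FI-90 lists, against 5034, 3459 and 4579 bp in the DMSO lists, a fitted log2 difference of -0.34 ± 0.057. CDH15, M-cadherin, covered 3931, 1615 and 3285 bp in the P3FI-90 lists, against 4311, 2834 and 3956 bp in the DMSO lists. All 7 markers and 17 of the 23 targets lie in the widest of these 4 classes, where narrowing was more frequent in general (10.96%), and the part of domain width in these counts was not tested. Of the stress response regions, 16 of 29 lie in that class.

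Genes of contraction and muscle structure, the contractile list, had the same lean in width. Of 11 common regions, 5 were narrower at an unadjusted p under 0.05 (CDH15, CHRNA1, MYL6B, TNNT1 and TNNT2), where 5.62% of all regions were. None was wider, and the median log2 width difference was -0.23. The lists overlap and are not separate checks. CDH15 and CHRNA1 are also counted as lineage markers above, and FGFR4, MYOD1, MYOG and TFAP2B as both lineage markers and targets. Of the 11, 8 lie in the widest class, where 10.96% were narrower. TNNT2, cardiac-type troponin T that immature skeletal muscle also makes, covered 2596, 1300 and 2018 bp in the P3FI-90 lists, against 2712, 1640 and 2660 bp in the DMSO lists. Of 14 myogenic regulators, 3 were narrower at the same threshold (MYOD1, MYOG and SOX8, all counted as targets above), and 10 of the 14 lie in the widest class. The median of their fitted rank differences was -4.16 points, beyond the medians within pairs 1, 3 and 4 (-1.92, -1.05 and 0.58), and it was -0.59 without pair 1, -1.17 without pair 3 and -0.95 on ranks of -log10 p. HES1, a Notch target that holds back differentiation, ranked 7.77, 19.6 and 15.4 in the P3FI-90 lists, against 7.11, 66.2 and 33.1 in the DMSO lists, with a gap in pairs 3 and 4 only.

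The widest domains of all behaved unevenly. By mean width the first 5 were at ALOXE3 and HES7, at PCDH7, at the upstream part of IGF2 (chr11:2160855-2170988), at PAX3 and at LMBRD2 and SKP2. PAX3, the normal allele or the 5′ part of the fusion gene, which peaks cannot tell apart, covered 9901, 5205 and 9438 bp in the P3FI-90 lists, against 10131, 5977 and 9552 bp in the DMSO lists, narrower in each pair by little. The domain shared by LMBRD2 and SKP2, a ubiquitin ligase subunit, covered 7139, 7053 and 8049 bp in the P3FI-90 lists, against 8832, 8300 and 8964 bp in the DMSO lists, and it was narrower in each pair by a fitted log2 difference of -0.23 ± 0.050. PCDH7, a protocadherin, covered 8077, 10440 and 8060 bp in the P3FI-90 lists, against 8068, 10316 and 8067 bp in the DMSO lists, with no difference beyond the spread of the pairs.

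The rank differences with the largest t values and the same sign in all 3 pairs were at genes of many roles. EDEM1 directs misfolded glycoproteins to degradation. It had the lowest unadjusted p of the rank fit and ranked 20.97, 29.8 and 19.7 in the P3FI-90 lists, against 85.9, 82.4 and 73.6 in the DMSO lists, with a wide gap between groups (-57.2 ± 7.93 points, limma adjusted p = 0.774), and on ranks of -log10 p the difference was -22.7 points. The region of EDEM1 at chr3:5229269-5231105 differed little in width (-0.03 ± 0.046 on the log2 scale), and its RNA was at 54.8, 65.95 and 26.5 TPM in P3FI-90, against 43.4, 52.5 and 25.1 TPM in DMSO. POLA1, the catalytic subunit of DNA polymerase alpha, ranked 3.15, 29.4 and 23.6 in the P3FI-90 lists, against 50.00, 70.1 and 57.9 in the DMSO lists, and its peaks covered 621, 756 and 676 bp in the P3FI-90 lists, against 1044, 934 and 1015 bp in the DMSO lists. Of the others, ESF1 with NDUFAF5, which share a promoter, differed by -39.2 ± 6.27 points, DLG5 by -33.2 ± 6.14 and FBXW8 by -36.4 ± 6.76.

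On the higher side FMC1, a mitochondrial assembly factor whose start is shared with a readthrough transcript, ranked 95.5, 88.7 and 96.7 in the P3FI-90 lists, against 74.5, 52.8 and 45.4 in the DMSO lists, with no overlap. ZNF234, a zinc finger protein, ranked 98.1, 71.9 and 95.8 in the P3FI-90 lists, against 39.6, 54.1 and 47.5 in the DMSO lists. TMEM184B ranked 82.3, 78.8 and 82.9 in the P3FI-90 lists, against 24.96, 59.6 and 12.7 in the DMSO lists, and SMAP1 differed by 27.7 ± 6.61 points. The FMC1 difference was 36.04 points, and 10.3 on ranks of -log10 p. CEBPG was the second of these 5 by its t value. RNA had a log2 fold change of 1.06 for CEBPG (limma adjusted p = 0.399, and 0.0189 with the block), 0.36 for SMAP1, 0.14 for TMEM184B, -0.23 for FMC1 and -0.29 for ZNF234.

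In width, SMURF1, a ubiquitin ligase of the BMP pathway, covered 2209, 841 and 1925 bp in the P3FI-90 lists, against 1523, 441 and 996 bp in the DMSO lists, wider in each pair. PER2, a circadian repressor, covered 3161, 1154 and 2590 bp in the P3FI-90 lists, against 2408, 834 and 2235 bp in the DMSO lists, and its rank was higher too (18.4, 22.9 and 30.2 in the P3FI-90 lists, against 7.49, 11.01 and 14.6 in the DMSO lists). The other 3 wider regions were at MCRIP2 (0.70 ± 0.10), FKBP4 (0.67 ± 0.12) and RPS6KA5 (0.35 ± 0.065). On the narrower side C1QTNF3 covered 1149, 1049 and 1506 bp in the P3FI-90 lists, against 1987, 1603 and 2099 bp in the DMSO lists, and the rest were at SLF2 (-0.62 ± 0.077), MGST2 (-0.47 ± 0.075), BCCIP with UROS (-0.35 ± 0.046) and DHX29 with MTREX (-0.30 ± 0.049).

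Of 22 histone lysine demethylase genes, 19 had a region in all 6 lists, among them KDM3B, KDM1A and KDM5A, and KDM4B had none in P3FI-90 list 3. KDM3B, which demethylates H3K9, ranked 35.5, 10.7 and 22.2 in the P3FI-90 lists, against 33.2, 17.4 and 25.96 in the DMSO lists. KDM1A, which removes mono- and dimethylation of H3K4, ranked 86.3, 66.02 and 69.01 in the P3FI-90 lists, against 78.6, 57.4 and 71.3 in the DMSO lists. KDM5A, which removes H3K4me3, ranked 82.8, 91.1 and 86.6 in the P3FI-90 lists, against 87.6, 89.4 and 88.7 in the DMSO lists, and its region was narrower in each pair (1967, 2468 and 1838 bp in the P3FI-90 lists, against 2295, 2615 and 2504 bp in the DMSO lists). Of 19 demethylase regions 1 was lower at an unadjusted p under 0.05 (KDM1B, -21.2 points), 0 were higher, and the median difference was -2.90 points. Among 16 regions of H3K4 methyltransferases and their partners the median was 0.84 points with 0 in either direction, and among 13 of H3K4me3 readers it was 1.995 points with 0 in either direction. SETD1A and SETD1B, the catalytic subunits of SETD1 complexes, were higher in all 3 pairs at 12.7 and 10.5 points. Of the 16 methyltransferase and partner regions, 3 were higher and 2 lower in all 3 pairs, where 15.2% and 13.9% of all regions were.

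Other stress and growth programs had medians on both sides of 0. Immediate early and NF-kB genes had a median rank difference of 5.53 points over 15 regions, beyond the medians within pairs 1, 3 and 4 (0.24, 2.86 and 1.85), with 6 higher and 2 lower in all 3 pairs (15.2% and 13.9% of all regions) and 0 under the unadjusted threshold. EGR1, the growth factor-induced zinc finger factor, was among them at 80.2, 53.8 and 83.4 in the P3FI-90 lists, against 59.8, 47.9 and 51.4 in the DMSO lists, higher in every pair though list 3 of P3FI-90 lay below list 1 of DMSO. NRF2 and metal response genes had a median of 1.55 points over 10 regions. HMOX1, heme oxygenase, was outside the fit: its fold enrichment was 66.2, 5.22 and 27.9 in the P3FI-90 lists, against 35.7 and 13.1 in DMSO lists 1 and 4, with no peak called in DMSO list 3. Heat shock genes had -3.84 points over 11 regions, with 5 lower in all 3 pairs and 0 higher in all 3 (13.9% and 15.2% of all regions), and hypoxia genes 0.26 points over 15.

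Cell cycle and death genes stayed near the median of all regions. For 21 genes of G2 and mitosis the median was -0.70 points, with NEK2 lower at an unadjusted p under 0.05. The p53 targets had 0.80 points over 18 regions, with DDB2 higher and PHLDA3 lower. The BCL2 family and cell death list had 0.13 points over 21 regions. CYCS, cytochrome c, was the lower one at 75.8, 95.2 and 74.7 in the P3FI-90 lists, against 97.7, 98.3 and 95.5 in the DMSO lists, and BBC3, which encodes the BH3-only protein PUMA, ranked 21.8, 80.2 and 12.7 in the P3FI-90 lists, against 25.2, 41.9 and 7.09 in the DMSO lists, higher in pairs 3 and 4. Housekeeping genes had -0.14 points over 22 regions and 0 in either direction, and even there the pair medians ran from -3.17 to 3.08. They are 1 list and do not measure how far the medians of other lists stray.

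**Figure D4:**
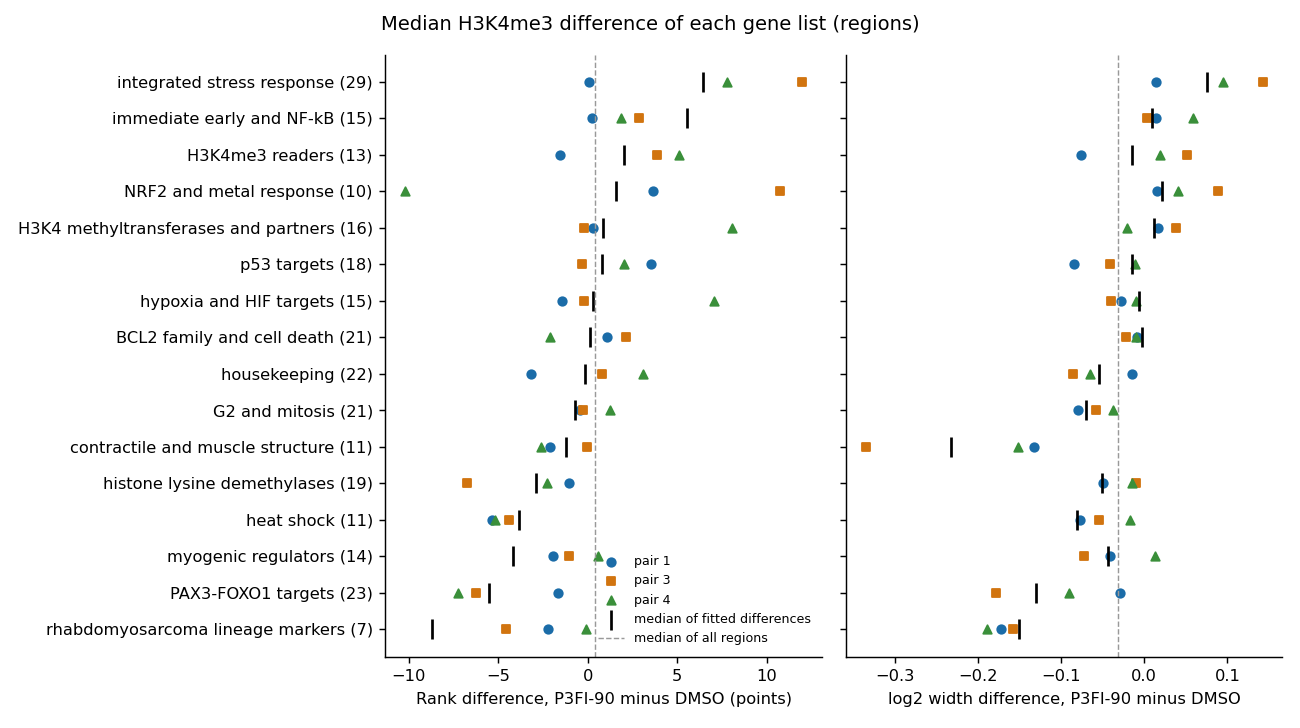
Median difference between P3FI-90 and DMSO for each gene list (number of common regions in parentheses), in rank points on the left and log2 width on the right; symbols are the medians of pairs 1, 3 and 4, the bar the median of the fitted differences, and the dashed line the median of all 11162 regions. The stress response list has the highest median in rank (6.41) and in width (0.08), rhabdomyosarcoma lineage markers (-8.74) and PAX3-FOXO1 targets (-5.51) have the lowest in rank (within pairs 1, 3 and 4 the marker medians are only -2.25, -4.56 and -0.11), and contractile genes (-0.23) the lowest in width.

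RNA of the same treatment and time, in 3 P3FI-90 and 3 DMSO libraries, had medians of the same sign for the stress response and PAX3-FOXO1 lists. The lists were chosen with earlier results of these data known, so the shared sign is not an independent check. In limma on log2(TPM + 1), adjusted p was under 0.05 for 2 of 12188 genes that were higher (0.0164%) and 0 that were lower (0.0%), 687 genes had an unadjusted p under 0.05, and with the replicate number as a block 342 were higher (2.81%) and 729 lower (5.98%). The 2 were TRIB3, at 129, 242 and 279 TPM in P3FI-90, against 22.1, 25.7 and 25.5 TPM in DMSO, and INHBE, at 81.95, 144 and 167 TPM in P3FI-90, against 12.7, 19.6 and 13.02 TPM in DMSO, with limma adjusted p of 0.0356 for both. DDIT3 was at 132, 375 and 218 TPM in P3FI-90, against 15.99, 52.9 and 20.2 TPM in DMSO, a log2 fold change of 3.04 with an adjusted p of 0.284, and 0.00117 with the block. Of 33 stress response genes tested, 26 rose with the block and 0 fell, with a median log2 fold change of 1.04. Of 25 PAX3-FOXO1 targets, 10 fell with the block and 0 rose, with a median of -0.32. Of 22 mitotic genes, 12 fell with the block, and the H3K4me3 rank of that list lay near the general median (-0.70 points).

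Gene by gene the mark and the RNA were only loosely related. Over 8785 genes with both, Spearman's correlation between the log2 fold change of RNA and the rank difference was 0.093, and with the width difference it was 0.130, across genes that share the same pairs and are not independent. At the 237 genes whose RNA rose with the block the median rank difference was 3.20 points and 68.4% were above 0. At the 574 whose RNA fell it was -0.54 points, where it was 0.51 points and 53.5% over all 8785. Within pairs 1, 3 and 4 the medians were 0.24, 2.91 and 3.09 points at the 237. They were -1.01, -0.57 and 1.22 at the 574, and -0.42, 0.32 and 1.38 over all 8785. In width the medians were 0.02 at the 237, -0.06 at the 574 and -0.04 over all 8785 on the log2 scale. At an unadjusted p under 0.05 the rank was higher at 13 and lower at 3 of the 237, and higher at 16 and lower at 27 of the 574.

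**Figure D5:**
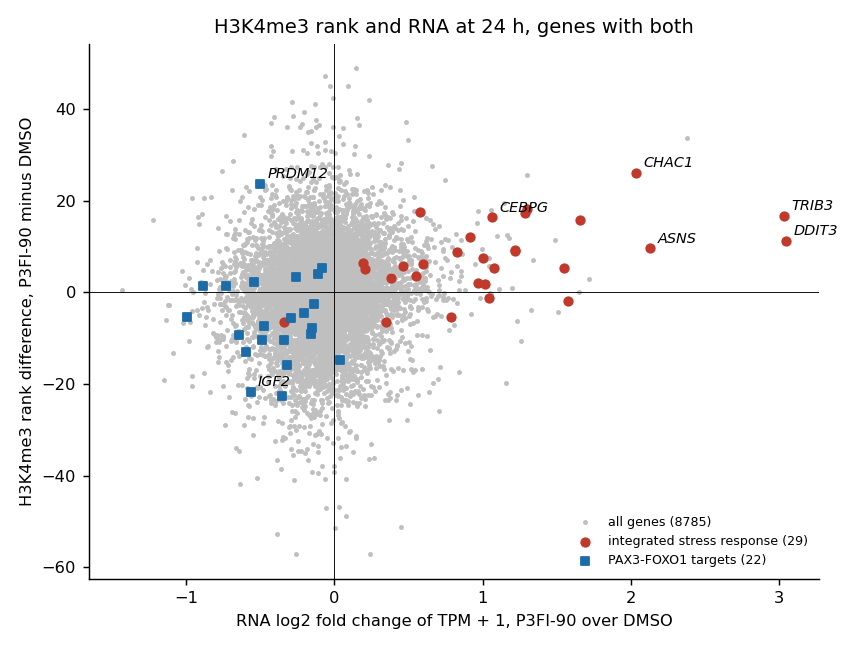
H3K4me3 rank difference (P3FI-90 minus DMSO, points) against RNA log2 fold change on the log2(TPM + 1) scale for 8785 genes, with the 29 stress response genes as red circles and 22 PAX3-FOXO1 targets as blue squares. The stress genes lie to the right, 24 of 29 above 0, and DDIT3 and TRIB3 are the farthest out in RNA (3.04 and 3.03), whereas the cloud of all genes shows almost no slope (Spearman 0.093).

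The other marks of the series were profiled with fewer libraries, 1 per treatment for RNA polymerase II, HP1 and H3K27me3, so their values have no replicate check. Of the 11162 common H3K4me3 regions, 43.7% overlapped a peak of polymerase II phosphorylated at serine 5 after P3FI-90, against 68.9% after DMSO, from lists of 7484 and 13691 peaks at -log10 p of at least 5. For total polymerase II it was 1.24% after P3FI-90, against 12.7% after DMSO, and these lists held 521 and 6031 peaks. A serine 5 peak lay in the H3K4me3 regions of CHAC1 and SLC7A11 in the P3FI-90 list only. Such a peak lay in those of MYOG, MYCN and FGFR4 in the DMSO list only. The regions of DDIT3, MYOD1 and EDEM1 had a serine 5 peak in both lists, and those of CEBPG, ASNS and TRIB3 in neither. Peaks of HP1, a reader of H3K9 methylation, overlapped 7.14% of the common regions after P3FI-90 and 2.11% after DMSO, from 15554 and 4492 peaks. H3K27me3 peaks overlapped 5.55% after P3FI-90 and 4.16% after DMSO. H3K9me2, the substrate of KDM3B, was profiled in 3 pairs, whose lists differ widely in length, and overlapped 1.95, 0.376 and 0.0717% of common regions after P3FI-90, against 1.71, 2.69 and 0.0538% after DMSO, with no common direction.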

How the data were processed

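H3K4me3 chromatin was immunoprecipitated from RH4 cells fixed in 1% formaldehyde, 3 libraries per treatment. The authors aligned reads to hg19 (GRCh37) with BWA, called narrow peaks per library with MACS2 and removed blacklisted places, according to their processing notes and methods. The deposited peak lists give, per peak, a fold enrichment (a ratio to local background) and a -log10 p, with a lowest deposited value of about 7. Depth is not in these lists, so no counting interval is given. RNA values are TPM deposited by the authors, made with STAR and RSEM. The deposited lists of the other marks were used by place and -log10 p.

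Peaks of the 6 lists were merged at 1 bp, ranked within each list over the 11162 common regions, and fitted with limma 3.58.1 in R 4.3.3 with the replicate number as a block, a mean-variance trend and Benjamini-Hochberg adjustment at 0.05. Values per list were compared by exact paired permutation over 3 pairs. RNA was fitted with limma on log2(TPM + 1) for genes averaging 1 TPM or more. Start sites are those of canonical transcripts of 20090 protein-coding genes in GENCODE on GRCh37, with 2 kb on each side. Regions may hold the starts of several genes. The fits were tested on simulated data. Tables and figures used python 3.11.15 with pandas 2.3.3.

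Replicate numbers come from the sample titles; the titles with none were called replicate 1. They pair the samples: deviations from the group means of same-numbered libraries correlated at 0.549, 0.645 and 0.445 for rank, 0.825, 0.859 and 0.768 for width and 0.573, 0.575 and 0.644 for RNA.

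Genes named are those of the 5 regions per direction with the largest t and 1 sign in all 3 pairs, up to 4 per list by t, the 5 widest regions, those called in 1 treatment only and a few genes of the study; other list members were chosen after their values were seen. The members and the 17 gene lists were chosen with earlier results of these data known. The authors' own tables of differential peaks hold fold changes and p-values and were not used.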

Additional observations from a re-analysis of the deposited data

How the results depend on the processing

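The alternatives were stricter peaks (-log10 p of at least 10), equal-size lists of 16410 peaks, a 1 kb merge or window, ranks of -log10 p, quantile or normal scores, centred or widest-peak widths, other TPM settings, the block and each pair left out. In limma no setting gave an adjusted call for H3K4me3, and without 1 pair 364 to 580 regions (rank) and 333 to 871 (width) had an unadjusted p under 0.05. Added after seeing the data, a fit over the 19321 regions of the 4 lists of replicates 1 and 4 also had 0 calls, with 1523 (rank) and 1501 (width) under 0.05. The median width difference turned to -6 bp with equal-size lists and ran from -3.5 to 28 bp with 1 pair left out (negative without pair 4). The start-site share turned to -0.66 percentage points with equal-size lists and ran from -0.0670 (without pair 1) to 0.51 (without pair 4). With equal-size lists, covered bases and marked start sites kept the sign of the mean (-292151 bp and 75 start sites) but not in every pair. Regions called in P3FI-90 alone numbered 1 with the 1 kb merge, 1 with stricter peaks, and 5 to 337 without 1 pair, and those in DMSO alone 14 to 448 without 1 pair, most without pair 3, which tests fewer lists. The replicate block gave 342 higher and 729 lower RNAs. Higher RNAs numbered 1 with the P3FI-63 libraries added, 0 without the filter and 0 to 0 without 1 pair, when 323 to 503 had an unadjusted p under 0.05. The block changed no adjusted call for H3K4me3, but without it no stress response region was wider and no target or lineage marker region narrower at an unadjusted p under 0.05. The SESN2 rank difference ran from -0.59 (without pair 3) to 8.53 points (without pair 1); the cause was not tested. The paper gives read depth per library, which was not used here. A design of 3 pairs and depth left out of the fits limit what small shifts can show.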

Other observations

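Among regions that 1 list lacks, 718 were in all 3 P3FI-90 lists and 2 of the DMSO lists, and 424 were in 2 of the P3FI-90 lists and all 3 DMSO lists. Replicate 3 accounts for most of both: its DMSO list was the one without a peak at 706, and its P3FI-90 list at 408. SLC7A11 and HMOX1 are in the first group. So is BMF, a BH3-only protein linked to detachment from the matrix, whose region had a fold enrichment of 67.7, 6.32 and 31.9 in the P3FI-90 lists, against 20.7 and 25.9 in DMSO lists 1 and 4. BMF RNA was at 67.1, 50.9 and 46.5 TPM in P3FI-90, against 58.9, 55.1 and 42.2 TPM in DMSO, and the groups overlap. KDM4B, an H3K9 demethylase, is in the second group, with 28.4 and 13.3 in P3FI-90 lists 1 and 4, against 39.6, 9.21 and 14.8 in the DMSO lists. Its RNA was at 4.68, 9.50 and 7.37 TPM in P3FI-90, against 5.47, 8.26 and 6.81 TPM in DMSO.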
